A study of Mus musculus with 29 samples.

Results

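IRF8 binding was compared between microglia of postnatal day 9 (P9) and adult mice. The comparison used 7 of the 25 libraries with peak lists in the series, 4 of P9 and 3 of adult microglia. They were taken by their titles, which name the age and the target. Overlaps were also taken with 3 IRF8 lists of P14 (postnatal day 14) microglia and 3 of peritoneal macrophages, all IRF8-EGFP. Further overlaps used PU.1 and H3K27ac lists of adult wild-type microglia and of adult microglia labelled IRF8KO (Irf8 knockout), and H3K4me1 lists of wild-type cells, with 2 libraries per target and genotype and no EGFP allele in their labels. The label of tissue source reads microglia for the macrophage libraries too, against their titles. In the assay, CUT&RUN, an antibody marks a chromatin protein, a tethered nuclease cuts the DNA beside it, and the fragments released are sequenced. All 7 libraries came from female mice of the strain IRF8-EGFP, in which IRF8 is joined to a green fluorescent protein, and the antibody was against GFP, so both stages carry the same tagged protein and neither is an untagged control. Microglia were sorted by FACS from brain cells fixed in 1% paraformaldehyde. An age of 3 months stands in the growth protocol of every sample, against the P9 titles, and was applied here to the adult mice only. Per the labels, adult replicates 1 and 2 belong to batch 1 and adult replicate 3 to batch 2. No batch is given for P9, and the P9 libraries are a selection from a larger set, on a basis that the sources used here do not state. The labels do not say whether libraries came from separate animals, so the p-values below measure only the spread between these libraries, which may be technical. In bulk chromatin, fewer bound cells and weaker binding in each cell cannot be told apart.

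IRF8 is a transcription factor of the interferon regulatory factor family that is needed for the development of several myeloid cells and is a central regulator of microglia, the resident macrophages of the brain. It binds DNA poorly alone and often pairs with the ETS factor PU.1 at a composite element, in which an ETS core GGAA stands next to an IRF core GAAA. With other IRF proteins it can bind interferon-response elements, in which the GAAA core is repeated, and with BATF proteins it can bind elements that join AP-1 and IRF sites. H3K4me1 is a histone mark of enhancers, and H3K27ac marks active enhancers and promoters.

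The authors called peaks in each library separately, and the lists differed greatly in length. On chromosomes 1 to 19 and X the P9 lists held 1157 to 2060 regions and the adult lists 17030 to 29635, from 13.4 to 20.9 M (mega) fragments at P9 and 7.25 to 24.7 M in adults. Each list was therefore reduced to its 1157 regions of highest pileup, the number in the shortest list, that of P9 replicate 2. This kept 56.2% to 100% of each P9 list and 3.9% to 6.79% of each adult list. At the limit the last region kept and the first left out had the same pileup in all 6 lists that were shortened (11, 15 and 10 in P9 replicates 1, 3 and 4, and 31, 70 and 19 in adult replicates 1, 2 and 3). The regions kept had a median fold enrichment over the control of 5.14 to 6.14 in the P9 lists and 12.6 to 18.6 in the adult lists, values that are the authors'. The list of P9 replicate 2 was thus used down to its own calling threshold, and each adult list only near its top. The P9 and adult libraries were also called against different IgG controls, so control and stage cannot be told apart. All 7 lists, from mice labelled female, also held 12 to 37 entries on chromosome Y, which entered no result.

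The 7 equal-length lists merged into 3288 regions. Of these, 273 had a peak in at least 2 P9 lists and in no adult list (8.3%) and are called P9-high. Another 174 had a peak in at least 2 adult lists and in no P9 list (5.29%) and are called adult-high. Another set of 613 regions (18.6%) was in at least 2 lists of each stage and is called shared. A further 417 were in at least 2 lists of one stage and in 1 of the other, and 1811 were in at most 1 list of each stage. The names describe rank within lists of 1157 regions and not presence or absence. Only 14 regions were in all 4 P9 lists and no adult list (0.426%), 53 in all 3 adult lists and no P9 list (1.61%), and 190 in all 7 lists. These counts are set by the rule and are given as a description. The rules are unequal, since P9-high needs 2 of 4 lists and adult-high 2 of 3. With 1 P9 library left out, P9-high regions were the fewer, 172 to 191 against 213 to 240 adult-high. With 1 adult library left out, adult-high regions numbered 85 to 101 and P9-high 333 to 355. Shared regions then numbered 392 to 561 over all 7 omissions. The order of the 2 counts is therefore not read as a difference between stages.

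**Figure D1:**
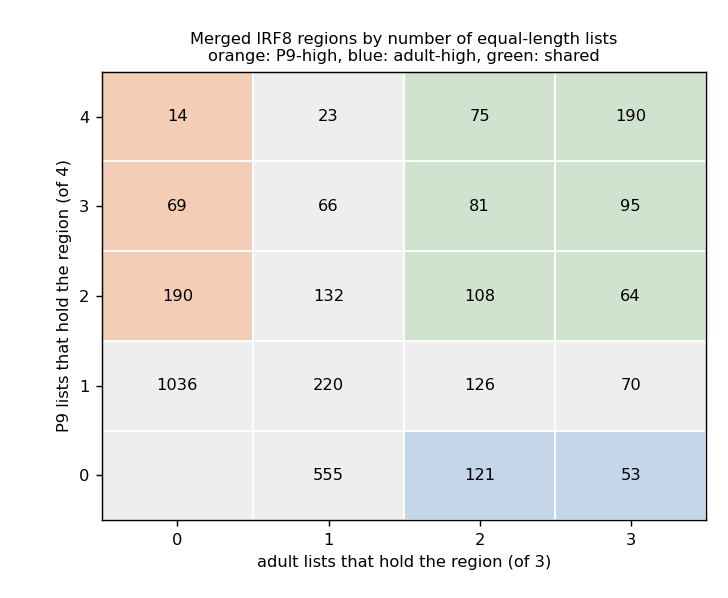
Number of merged regions by how many of the 4 P9 lists (vertical axis) and of the 3 adult lists (horizontal axis) hold them, at 1157 regions per list. The shared corner of 190 regions in all 7 lists is larger than either corner of regions in every list of one stage, 14 for P9 and 53 for adult.

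The sequences below are examples, chosen because they hold a match, and most regions hold none. Of the 10 regions of each class named below, 2 P9-high, 4 adult-high and 2 shared regions had a composite match within 200 bp of the strongest summit. Each is 100 bases of the GRCm38 assembly, 5′ to 3′, read on the strand that carries the match, with the match in capitals. The first 2 are composite elements of P9-high regions and the third is an ETS element in the P9-high region before Icam1. The next 3 are composite elements of adult-high regions, and the last 2 of shared regions.
Lbx1 region: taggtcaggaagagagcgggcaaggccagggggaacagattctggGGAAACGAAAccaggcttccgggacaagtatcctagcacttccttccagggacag
Pilra region: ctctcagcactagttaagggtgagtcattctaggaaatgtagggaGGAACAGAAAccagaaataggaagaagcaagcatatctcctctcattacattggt
Icam1 region: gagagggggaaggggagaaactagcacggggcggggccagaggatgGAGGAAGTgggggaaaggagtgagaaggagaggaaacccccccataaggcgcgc
Gxylt1 region: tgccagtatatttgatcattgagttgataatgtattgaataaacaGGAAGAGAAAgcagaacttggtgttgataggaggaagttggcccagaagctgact
Epgn region: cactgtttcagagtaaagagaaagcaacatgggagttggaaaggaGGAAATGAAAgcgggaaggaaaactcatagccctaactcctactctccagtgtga
Ankrd54 region: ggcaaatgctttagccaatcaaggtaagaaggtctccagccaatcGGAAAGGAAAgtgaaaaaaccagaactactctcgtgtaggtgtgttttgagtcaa
Commd8 region: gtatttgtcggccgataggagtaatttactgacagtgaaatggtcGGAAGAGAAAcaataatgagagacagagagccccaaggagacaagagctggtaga
Tyk2 region: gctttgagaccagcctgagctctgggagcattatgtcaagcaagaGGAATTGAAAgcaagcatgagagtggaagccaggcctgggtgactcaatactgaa
In the same order they lie at chr19:45242618-45242717 (minus strand), chr5:137825247-137825346 (plus), chr9:21015056-21015155 (plus), chr15:93268191-93268290 (minus), chr5:91000110-91000209 (minus), chr15:79063184-79063283 (plus), chr5:72184401-72184500 (plus) and chr9:21125543-21125642 (minus). A match is a run of letters and was not tested as a binding site.

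Regions are named here by the protein-coding gene with the nearest annotated start, which is a label of position and not of regulation. By the rule of lowest mean rank, 10 regions of each class are named. The 10 P9-high regions were nearest to Olfr630, Fars2, Lbx1, Dupd1, Ddx47, Pilra, Pid1, Icam1, Dock10 and Acsf3, and each was in all 4 P9 lists. Of these 10, 2 lay within 1 kb of a start, 5 in introns and 3 between genes. The strongest of them by mean rank lay 5566 bp upstream of Olfr630, an olfactory receptor gene, at chromosome 7, 103762257 to 103763541. It ranked 634, 264, 248 and 296 in P9 replicates 1 to 4 and 1334, 1435 and 2059 in the full lists of adult replicates 1 to 3. It was therefore present in every adult list, some way below rank 1157.

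The P9-high region at Icam1, which encodes an adhesion molecule that leukocytes bind, lay 659 bp upstream of the start at chromosome 9, 21014893 to 21015760. It ranked 532, 856, 459 and 787 in the P9 lists and 1432, 1475 and 1580 in the adult lists. Its fold enrichment was 6.25, 4.84, 7.35 and 5.25 in the P9 libraries and 15.6, 16.1 and 10.6 in the adult libraries, so a lower rank in adults did not go with a lower listed value. The intronic region of Pilra, an inhibitory receptor of myeloid cells, ranked 446, 744, 733 and 625 at P9 and 1496, 1817 and 2112 in adults. At the promoter of Dock10, which encodes a guanine nucleotide exchange factor, the region ranked 811, 452, 955 and 545 at P9 and 1509 to 3861 in adults. The region in Pid1, an adaptor gene linked to insulin signalling, ranked 290, 453, 1134 and 682 at P9 and 1497, 1263 and 1209 in adults. Other P9-high regions lay far down the adult lists. The region 6797 bp upstream of the homeobox gene Lbx1 ranked 434, 341, 1005 and 123 at P9 and 4177, 4161 and 12715 in adults. The region in Acsf3, which encodes a mitochondrial acyl-CoA synthetase, ranked 399 to 1039 at P9, 11343 and 15605 in adult replicates 1 and 2, and was not listed in adult replicate 3.

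The 10 adult-high regions were nearest to Elmo1, Gxylt1, Usp6nl, Agpat1, Epgn, Macc1, Ankrd54, Wipf1, Cldn1 and Rapgef1, all in the 3 adult lists. An intronic region of Elmo1, an engulfment gene that acts with DOCK proteins, lay at chromosome 13, 20458415 to 20459395. It ranked 163, 399 and 184 in adult replicates 1 to 3, with fold enrichments of 29.6, 23.7 and 18.8, and was listed in no P9 library. The region in Gxylt1, a glycosyltransferase gene of the Notch pathway, ranked 210, 328 and 225 in adults. The region of 4251 bp in Usp6nl, which encodes a GTPase-activating protein of endocytic traffic, ranked 265, 43 and 501. A region at the start of Agpat1, an enzyme gene of phospholipid synthesis, ranked 499, 294 and 52. The region 394 bp upstream of Ankrd54 ranked 805, 194 and 158 but had fold enrichments of only 4.34, 3.39 and 4.8. Of these 10 regions, the one near Wipf1, which encodes a partner of the actin regulator WASP, was the only one listed at P9, at rank 1979 of P9 replicate 3. Absence from a P9 list of at most 2060 regions shows only that a region was not called there.

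The named shared regions stood near the top of all 7 lists. The region 1579 bp upstream of the splicing factor gene Mbnl1, at chromosome 3, 60468217 to 60474286, ranked 15, 14, 23 and 40 at P9 and 12, 17 and 21 in adults. An intronic region of Plscr1, an interferon-inducible scramblase gene, ranked 16 to 37 at P9 and 18 to 31 in adults. At the start of Wdfy4, a gene of antigen cross-presentation, the region ranked 23 to 55 at P9 and 24 to 39 in adults. The intronic region of Tyk2, a kinase of the interferon receptor, ranked 35, 55, 59 and 157 at P9 and 20, 21 and 69 in adults. The others were nearest to Zfp658, Commd8, Chn2, Strap, Tefm and Rapgef1. Rapgef1, which encodes an exchange factor for Rap1, had both a shared region 4742 bp downstream of its start and an adult-high region 20869 bp downstream.

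**Figure D2:**
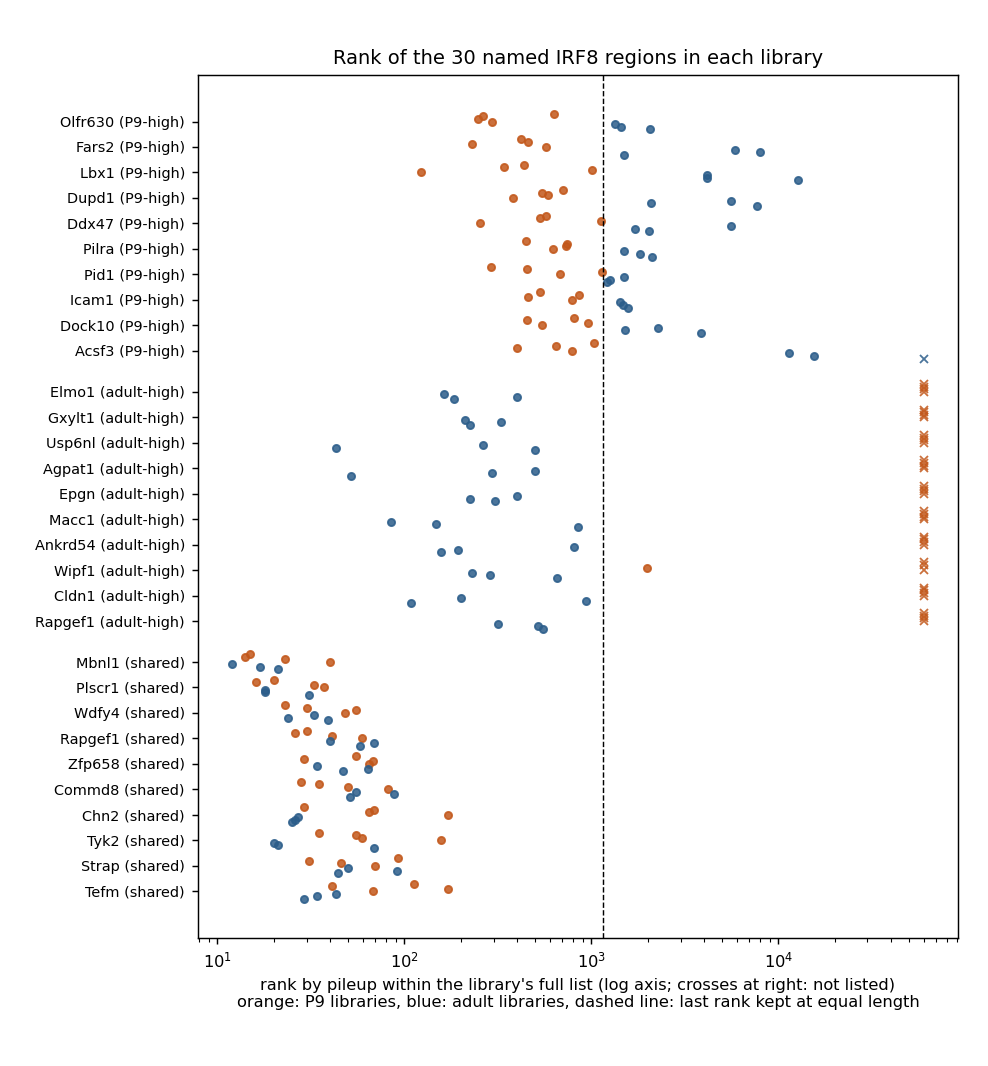
Rank by pileup of the 30 named regions within each library's full list (log axis), with orange points for P9 and blue points for adult libraries, and crosses for libraries in which the region was not listed. P9-high regions stood just below to far below rank 1157 (dashed line) in adult lists, adult-high regions were mostly not listed at P9, and shared regions ranked between 12 and 172 at both stages.

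The same held across all members of the classes. Of the 273 P9-high regions, 252 (92.3%) were in at least 1 full adult list, 214 (78.4%) were in all 3 and 21 were in none. Their median rank was 3050, 2434 and 3850 in adult replicates 1, 2 and 3, which is 17.9%, 8.21% and 17.2% of the way down those lists. In the P9 lists their median rank was 666 to 695.5 in replicates 1 and 2, 866 in replicate 3 and 623 in replicate 4. Their median fold enrichment was 4.84 to 5.52 where P9 libraries listed them and 7.04 to 10.8 where adult libraries did. The 174 adult-high regions had median ranks of 804.5, 821 and 770 in the adult lists. Only 28 of them (16.1%) were in any full P9 list, and 25 of the 174 were in that of P9 replicate 3, the longest. The shared regions stood higher than either class, with median ranks of 319 to 411 at P9 and 405 to 578 in adults. Most of the regions of highest pileup of one stage were kept at the other. Of the 100 top regions of a P9 library, 55 to 92 were in an adult equal-length list, and of the 100 top regions of an adult library, 58 to 92 were in a P9 list. No fold minimum was set on these 100. The highest pileup of a list was 90939 to 213261, beside medians of 14 to 87. In each list 13 to 46 kept regions had a fold enrichment under 3. The part of such regions in this overlap was not tested.

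The Jaccard index of 2 lists is the number of merged regions found in both divided by the number found in either. It was 26.0% to 35.9% between P9 libraries, 33.6% to 49.2% between adult libraries and 21.5% to 36.4% across stages. The adult pair of the same batch gave the highest value, 49.2%, and the adult pairs across batches 33.6% and 35.2%. Pairs of the same stage averaged 33.4% and pairs across stages 29.6%, a difference of 3.74 percentage points (exact permutation test over 35 assignments of the libraries, two-sided, p = 0.0571, adjusted p = 0.171 over 12 tests by Benjamini-Hochberg). The difference did not pass the threshold of 0.05 and fell to 0.726 points without adult replicate 3, the batch 2 library. It was 6.60 points with regions ranked by fold enrichment (exact permutation p = 0.0286, adjusted p = 0.171). With full lists it was 25.2 points, but the far longer adult lists keep the index low across stages by construction, so no test is read from that value. Several pairs across stages were thus as alike as pairs of P9 libraries.

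Width did not overlap between the stages, but no measure compared here passed an adjusted p of 0.05. The median width was 421, 394, 375 and 267 bp in P9 replicates 1 to 4 and 1184, 1669 and 668 bp in adult replicates 1 to 3. The difference was 809.4 bp (two-sided exact permutation p = 0.0286, adjusted p = 0.171), and 0.0286 is the smallest p that 4 against 3 libraries can give. Over 12 tests the adjusted threshold could then be met only if several measures reached that p together. Batch 1 alone gave a difference of 1062 bp and batch 2 alone 303.8 bp. With full lists it was 187.7 bp (exact permutation p = 0.2, adjusted p = 0.3), and adult replicate 3, at 297.5 bp, then lay inside the P9 range of 268 to 404 bp. The adult libraries also had the higher enrichment over the control, given above. The part of enrichment in the width was not tested.

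The genomic position of the regions did not separate the stages. A region was counted at a promoter if its centre lay within 1 kb of any annotated transcript start. This share was 20.9%, 19.2%, 25.9% and 25.3% in the P9 libraries and 25.6%, 23.1% and 25.2% in the adult libraries, so the groups overlapped. The means were 22.8 ± 3.30% (SD, n = 4) and 24.6 ± 1.36% (SD, n = 3; exact permutation p = 0.457, two-sided, adjusted p = 0.610). Within the classes, promoters made up 24.2% of P9-high, 24.1% of adult-high and 22.8% of shared regions, beside 25.1% of all merged regions. Introns held 41.4%, 45.4% and 37.7%, beside 38.8% of all, and intergenic DNA 30.8%, 27% and 35.7%, beside 32.4%.

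Overlap with H3K27ac of adult wild-type microglia was higher in each adult library, by a difference that did not pass the adjusted threshold. The shares were 85.7%, 84.96%, 86.0% and 78.4% in P9 replicates 1 to 4 and 90.2%, 90.8% and 88.2% in the adult libraries. The difference of 5.94 percentage points between the means of 83.8 ± 3.61% (SD, n = 4) and 89.7 ± 1.37% (SD, n = 3) had an exact permutation p of 0.0286 (two-sided, smallest possible), and an adjusted p of 0.171. It was 6.72 points for batch 1 and 4.39 points for batch 2 alone. With the strongest 500 regions it was 3.37 points (exact permutation p = 0.4, adjusted p = 0.724), and full lists reversed it, to -16.5 points. Taking only 100 bp on either side of the strongest summit, an alternative chosen after seeing the data, gave 5.38 points. For H3K4me1 the means were 89.3 ± 3.52% and 94.5 ± 2.01% (exact permutation p = 0.0571, adjusted p = 0.171). For PU.1 they were 67.7 ± 3.98% and 71.2 ± 5.15%, with overlapping groups (exact permutation p = 0.371, adjusted p = 0.610). The marks and PU.1 were mapped in adult cells only, so these overlaps compare P9 IRF8 with adult chromatin.

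**Figure D3:**
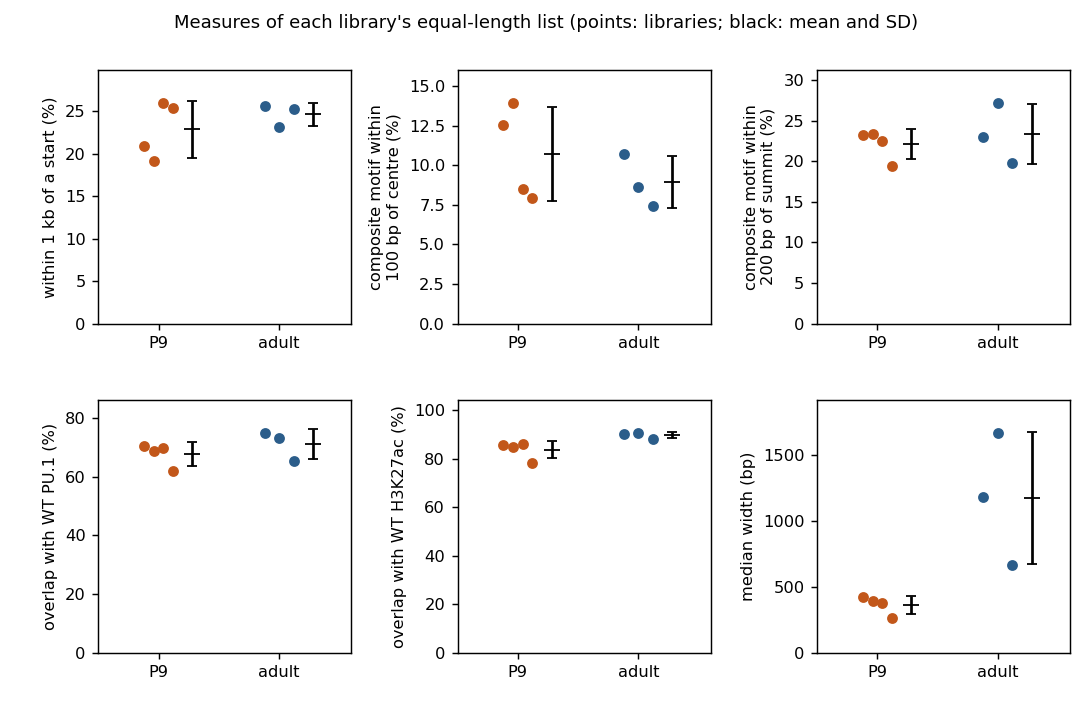
Promoter share, composite-motif share in 2 windows, overlap with adult wild-type PU.1 and H3K27ac, and median width of the 1157 regions of each library, with points for libraries and black marks for mean and SD (P9 n = 4, adult n = 3). The groups do not overlap for H3K27ac (78.4% to 86.0% against 88.2% to 90.8%) and width, and overlap in the other panels.

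Among the classes, PU.1 overlapped 85.8% of shared, 59.3% of P9-high and 56.9% of adult-high regions, beside 56.1% of all merged regions. H3K27ac overlapped 92.8% of shared, 81.7% of P9-high and 86.8% of adult-high regions, beside 81.3% of all, and H3K4me1 96.6%, 86.8% and 90.2%, beside 87% of all. Shared regions were also the widest, with a median of 1965 bp, against 497 bp for P9-high and 1346 bp for adult-high regions, and were the strongest by rank. The part of width and strength in these shares was not tested. Among regions with a wild-type PU.1 peak, 19.8% of P9-high, 24.2% of adult-high and 21.1% of shared regions had no PU.1 peak in Irf8 knockout microglia, beside 22.3% of all. For H3K27ac the same shares were 26.0%, 27.2% and 15.5%, beside 24.4%. Windows of which over 50% was marked as repeat made up 14.3% of P9-high, 4.6% of adult-high and 5.87% of shared regions, beside 9.88% of all.

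Motifs were searched on both strands: the composite element (GGAA, any 2 bases, GAAA), the interferon-response element (GAAA, any 2 bases, GAAA), the ETS element GAGGAAGT and the AP-1 element TGANTCA. The first 2 patterns can overlap where GAAA follows GGAA closely. Within 100 bp of the region centre the composite element was found in 12.53%, 13.9%, 8.47% and 7.95% of the regions of P9 replicates 1 to 4 and in 10.7%, 8.64% and 7.43% of those of adult replicates 1 to 3. The groups overlapped (10.7 ± 2.96% and 8.93 ± 1.66%, exact permutation p = 0.4, adjusted p = 0.610). Windows of the same size 5 kb away held it in 1.92% and 1.94% of cases. The ETS element was found in 8.30 ± 1.55% and 7.61 ± 0.377% (exact permutation p = 0.457, adjusted p = 0.610), against 1.47% and 1.48% at 5 kb. The interferon-response element (3.76 ± 0.609% and 3.49 ± 0.200%) and the AP-1 element (7.80 ± 0.821% and 7.95 ± 0.150%) differed between stages by less than the SD at P9. At 5 kb the interferon-response element was in 3.32% and 2.92% and the AP-1 element in 5.86% and 5.96% of windows.

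The higher P9 means of the composite and ETS elements were kept within 100 bp of the strongest summit (adult minus P9, -1.74 and -0.706 percentage points, exact permutation p = 0.2 and 0.543) and not in a wider window. Within 200 bp of the strongest summit, a window chosen after seeing the data, the composite element was in 22.1 ± 1.87% of P9 and 23.3 ± 3.68% of adult regions (exact permutation p = 0.6, adjusted p = 0.686), against 4.20% and 3.88% at 5 kb. The ETS element was in 17.9 ± 1.39% and 20.2 ± 0.982% (exact permutation p = 0.0857, adjusted p = 0.206), against 2.71% and 2.92%. Both differences thus had the opposite sign in this window. The interferon-response element was in 8.62 ± 0.660% and 9.94 ± 1.05% (exact permutation p = 0.114, adjusted p = 0.229), against 5.99% and 5.93%, and its difference also had the opposite sign to that around the region centre. Matches were most frequent to either side of the summit. In all 7 libraries the 25-bp distance bin with most composite and ETS matches was that from 125 to 150 bp on either side of it. In the sequences shown above the composite match lay 168 bp from the summit at Lbx1, 156 bp at Pilra, 148 bp at Epgn, 120 bp at Tyk2, 116 bp at Commd8, 110 bp at Gxylt1 and 90 bp at Ankrd54, so 1 of these 7 was in that bin.

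Composite matches from 100 to 175 bp from the summit numbered 177, 160, 190 and 146 in P9 replicates 1 to 4, beside 48, 63, 41 and 41 within 75 bp and 15, 25, 17 and 21 from 425 to 500 bp. The ratio of the 2 counts was 3.69, 2.54, 4.63 and 3.56 at P9, and 9.50, 6.89 and 2.82 in adult replicates 1 to 3. Adult replicate 3, of batch 2, lay inside the P9 range. The means of 3.60 ± 0.855 (SD, n = 4) and 6.4 ± 3.37 (SD, n = 3) did not differ beyond that spread (exact permutation p = 0.171, two-sided, adjusted p = 0.343 over the 4 motifs compared in this way). The mean fragment size per the file headers was 240, 242, 178 and 169 bp in the P9 libraries and 230, 234 and 182 bp in the adult libraries, and its part in these distances was not tested. For the interferon-response element the ratio was 1.81 ± 0.232 at P9 and 2.68 ± 0.694 in adults (exact permutation p = 0.0857, adjusted p = 0.343). For AP-1 the ratio was 1.45 ± 0.215 at P9 and 1.53 ± 0.183 in adults, so AP-1 matches showed little of this pattern at either stage.

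**Figure D4:**
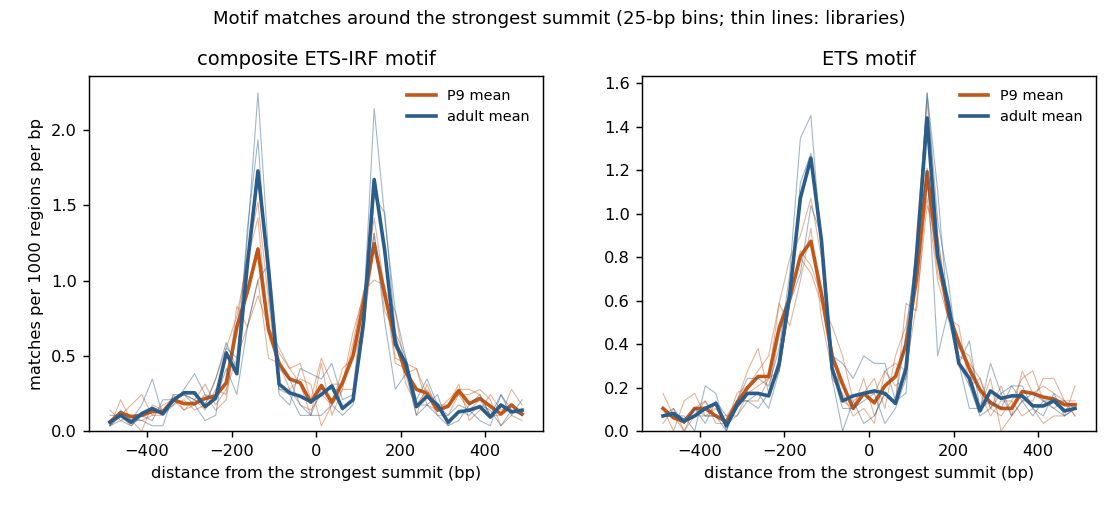
Matches of the composite (left) and ETS (right) elements per 1000 regions and bp, by distance from the strongest summit in 25-bp bins, with thin lines for libraries and thick lines for the mean of P9 (orange) and adult (blue). At both stages the matches gather on either side of the summit, in the bins from 125 to 150 bp, with fewer at the summit itself.

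The classes themselves had similar shares of the composite element within 200 bp of the strongest summit, 21.2% of P9-high, 22.4% of adult-high and 26.1% of shared regions, beside 19.9% of all merged regions. The interferon-response element was in 6.23%, 12.6% and 9.62%, beside 8.73% of all. The RUNX element TGTGGTT, the site of RUNX factors such as RUNX1, was in 12.8%, 6.9% and 10.6%, beside 10.0% of all. These shares are descriptions of classes chosen by rank, and no test was made on them.

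Lists of genes known for microglia and for IRF8 were then searched for regions within 10 kb of the gene body. Of 285 listed genes, 11 (3.86%) had a P9-high, 8 (2.81%) an adult-high and 31 (10.9%) a shared region, and none had both a P9-high and an adult-high region. Over all 21728 protein-coding genes the shares were 1.26%, 0.824% and 2.7%. Homeostatic microglial genes had regions of each kind. P2ry12 and Cx3cr1 had P9-high regions, Selplg had an adult-high region, and P2ry12 and Siglech were among those with shared regions. P2ry12, the purinergic receptor that guides microglial processes, had 2 P9-high regions, one in an intron 1895 bp downstream of its start and one 208 bp upstream. The first ranked 1118, 1599 and 321 in P9 replicates 2, 3 and 4, was not listed in P9 replicate 1, and ranked 2616, 2906 and 7752 in adults. In Cx3cr1, the fractalkine receptor gene, an intronic region ranked 641, 1151, 1247 and 791 at P9 and 2809 and 1578 in adult replicates 1 and 2, and was not listed in adult replicate 3. An adult-high region 9121 bp upstream of Selplg, which encodes the P-selectin ligand, ranked 1101, 1078 and 3610 in adults and was not listed at P9. In adult replicate 3 it was outside the strongest 1157.

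Among 10 interferon regulatory factor genes, Irf1, Irf5 and Irf9 had P9-high regions, none had an adult-high region and Irf5 also had a shared one. IRF1 and IRF5 are activators of inflammatory and interferon genes, and IRF9 is the DNA-binding subunit of the complex that answers type I interferon. The Irf9 region lay 166 bp upstream of the start, at chromosome 14, 55604185 to 55604638. It ranked 603 and 990 in P9 replicates 1 and 4, was not listed in P9 replicates 2 and 3, and ranked 1269, 1402 and 2196 in adults. The Irf5 region ranked 735 and 233 in P9 replicates 3 and 4 only, and 1819, 1451 and 4809 in adults. The Irf1 region, 6149 bp upstream, ranked 699 and 1073 in P9 replicates 1 and 3 only, and 2209, 5407 and 1697 in adults. All 3 were thus P9-high through 2 of 4 libraries and were listed in every adult library. Of 19 type I interferon-stimulated genes, none had a P9-high or adult-high region and Ifitm3 had a shared one. Over all genes 1.26% had a P9-high and 0.824% an adult-high region, so none of 19 is near those shares.

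Of 14 inflammasome genes, Nlrp3, the sensor of a caspase-1 inflammasome, had a P9-high region 70 bp upstream of its start, and Naip6 and Il1b had shared regions. The Nlrp3 region ranked 659, 1873 and 982 in P9 replicates 1, 3 and 4, was not listed in P9 replicate 2, and ranked 1345, 1905 and 3006 in adults. Of 14 Toll-like receptor genes and adaptors, Tlr4, the lipopolysaccharide receptor, had a P9-high region at ranks 1043 and 523 in P9 replicates 2 and 4 and 5981, 4992 and 5960 in adults. Tlr3 and Tlr4 had shared regions. Cd68, a lysosomal protein gene of phagocytes, had a P9-high region over its start that ranked 457, 1078 and 428 in P9 replicates 1 to 3 and 2776, 2178 and 1597 in adults. In Mef2c, a transcription factor gene of mature microglia, a P9-high region at ranks 371 and 1066 in P9 replicates 1 and 3 stood beside a shared region. Ccr1, a chemokine receptor gene, and Dab2, an endocytic adaptor gene, had 1 P9-high region each. Of 16 genes listed for early postnatal microglia, 1 (Dab2) had a P9-high region, 1 (Mrc1) an adult-high region and 0 a shared one.

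Adult-high regions were found at Batf, Tgfbr2, Ccl5, Dusp1, Cd9, Mrc1 and Slc1a3. The region in Batf, which encodes an AP-1 family partner of IRF8, ranked 1156, 1277 and 944 in adult replicates 1 to 3. That of Tgfbr2, a receptor subunit for TGF-beta, a factor microglia need to keep their identity, ranked 1434, 692 and 671. The region 3506 bp upstream of the chemokine gene Ccl5 ranked 718, 913 and 2367. None of these 3 was listed in any P9 library, and each ranked below 1157 in 1 of the 3 adult libraries. Shared regions were found at 4 of 12 complement genes (C1qa, C1qb, C1qc and C3ar1) and at lysosomal genes that included Ctsb, Ctsh, Ctss, Tfeb and Grn. Of these 2 lists, only Cd68 had a P9-high region and none an adult-high one. None of 16 cell cycle genes had a region of any of the 3 classes. Over all genes these shares were 1.26%, 0.824% and 2.7%, so no lack can be read from 16 genes.

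The listed cell type was checked with 8 microglial marker genes. All 8 had wild-type H3K27ac, 4 had a region in at least 2 full P9 lists and 8 in at least 2 full adult lists. Markers of neurons, oligodendrocytes, lymphocytes, and monocytes and neutrophils, 8 genes each, had no P9-high, adult-high or shared region. Over all genes these shares were 1.26%, 0.824% and 2.7%, so 0 of 8 is near them. Regions in at least 2 full adult lists stood at 2 of 8 neuronal, 1 of 8 monocyte and neutrophil, 3 of 8 oligodendrocyte, 5 of 8 lymphocyte, 4 of 8 astrocyte and 5 of 8 border macrophage genes, and in at least 2 full P9 lists at 0 of 8 of each. Of all 21728 genes, 48.7% had such a region in the adult and 5.82% in the P9 lists. Of 8 astrocyte markers, the glutamate transporter gene Slc1a3 had an adult-high region, in an exon, at ranks 564, 1745 and 752. Of 8 markers of border macrophages, the mannose receptor gene Mrc1 had one, at ranks 5682, 412 and 254. Wild-type H3K27ac was found at 1 of 8 neuronal, 2 of 8 monocyte and neutrophil, 3 of 8 oligodendrocyte, 4 of 8 lymphocyte, 4 of 8 astrocyte and 5 of 8 border macrophage genes, against 12104 of all 21728 genes (55.7%). The part of other cells in these 2 regions was not tested.

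The classes were followed into IRF8 lists that the rule did not use. At equal length, P14 replicates 1 to 3 held 26.0%, 27.1% and 22.7% of the P9-high regions and 31.6%, 32.2% and 33.3% of the adult-high regions. The same libraries held 76.7%, 82.4% and 75% of the shared regions. In every P14 library the adult-high share was above the P9-high share, by less than the gap of either to the shared regions. In full P14 lists, 88.6% of P9-high, 92.0% of adult-high and 99.5% of shared regions were in at least 2 of 3 libraries. Peritoneal macrophage lists of equal length held 15.4%, 16.1% and 11.7% of P9-high, 23.6%, 20.1% and 11.5% of adult-high and 45.7%, 45.2% and 30.7% of shared regions in replicates 1 to 3. Both stage classes thus ranked high in macrophages less often than the shared class, and in macrophage replicate 3 their shares were nearly equal. Differences between classes in these lists were not tested, and the share of all merged regions in them was not taken. The shared class was also the strongest by rank, and the part of strength in these shares was not tested.

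**Figure D5:**
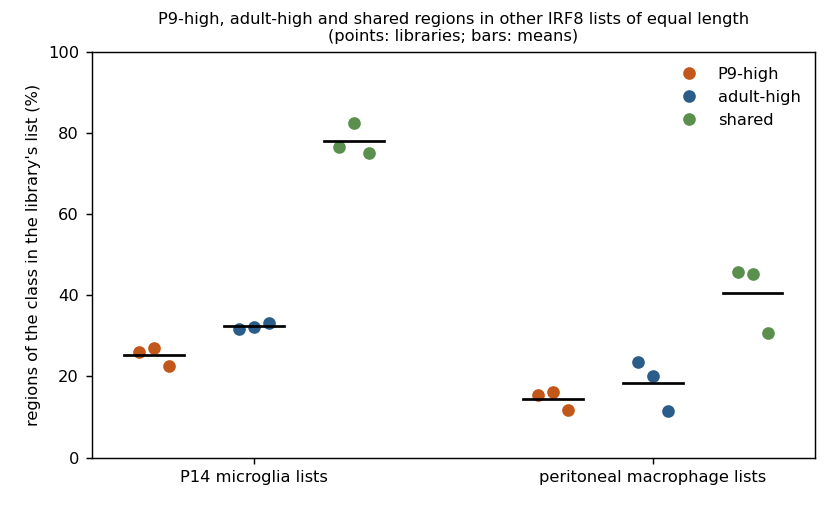
Share of the P9-high, adult-high and shared regions that are among the 1157 strongest IRF8 regions of each P14 microglia and each peritoneal macrophage library (points), with the mean as a bar. Shared regions lie at 75% to 82.4% in P14 and 30.7% to 45.7% in macrophages, and the stage classes below them at 22.7% to 33.3% and 11.5% to 23.6%.

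A few loci held regions of both stage classes. In 5 pairs a P9-high and an adult-high region lay within 50 kb of each other, at Klf7 (2 pairs), Cd180, Ston2 and Tent5a. An adult-high region lay this near to 1.83% of P9-high regions, beside 3.16% of all merged regions. A P9-high region lay this near to 2.3% of adult-high regions, beside 4.9% of all. At Klf7, a Krüppel-like transcription factor gene, P9-high regions at chromosome 1, 64295415 to 64295823 and 64301367 to 64301913, lay 5225 and 11246 bp from an adult-high region at 64290024 to 64290764. At Cd180, a Toll-like receptor homologue of the lipopolysaccharide response, the 2 regions were 8364 bp apart. A shared region lay within 50 kb of 36 P9-high (13.2%) and 17 adult-high regions (9.77%), beside 11.5% of all 3288 merged regions and 15.2% of shared regions with another shared one.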

How the data were processed

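CUT&RUN peak lists of IRF8 in 4 P9 and 3 adult libraries were used, with the P14, macrophage, PU.1 and histone lists for overlaps. Per the submitters' processing notes, bcl2fastq, Trim Galore, Bowtie2, deepTools and MACS2 were used with the mm10 build. Beyond the file headers, the sources used here do not state their settings. The authors called narrow peaks with MACS 2.2.7.1 per the file headers, in paired-end mode with duplicates kept, a q-value limit of 0.01 and a maximum gap of 640 bp. Each deposited peak has a pileup (a scaled coverage signal), a −log10 p-value, a −log10 q-value and a fold enrichment, which is the authors' ratio to the control. Since the authors scaled the larger library down to the smaller, pileups were used only to rank regions within a list. Depth is given in the report.

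Entries with the same boundaries were joined into 1 region. Regions on chromosomes 1 to 19 and X were ranked by highest pileup and each list was cut to 1157. Overlap needed 1 shared bp, and a consensus needed 2 libraries. Gene positions came from GENCODE M21 and bases from GRCm38.p6, whose chromosome lengths hold all regions. Named regions were the 10 of each class with the lowest mean rank among those in the most libraries, with a median fold of at least 3 and a start within 50 kb, and all P9-high and adult-high regions within 10 kb of a listed gene. Measures per library were compared by exact permutation tests over 35 assignments, adjusted over 12 tests by the Benjamini-Hochberg method. The alternatives were other rankings, 500 regions, a fold minimum, all chromosomes, full lists, batches, other windows and leaving out each library. The code was tested on simulated lists. Some listed genes are not reported here by name. The members and gene lists were chosen with earlier results of these data known. Python 3.11.15, numpy 2.4.6, pandas 2.3.3 and pysam 0.24.0 were used.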

Additional observations from a re-analysis of the deposited data

Results flagged for a closer look

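One value passed the limit for standing apart from its group. In P9 replicate 4, 78.39% of the 1157 regions overlapped adult wild-type H3K27ac, beside 84.96% to 86% in the other 3 P9 libraries. Its distance from the next lowest library made up 0.863 of the group's range. It was the only such value among 19 measures of the P9 libraries, and chance flags about 1 in 20 groups. The same library was lowest of the P9 libraries for PU.1 (61.8%, beside 68.71% to 70.35% in the others) and H3K4me1 (84.1%, beside 90.2% to 91.6%), by gaps just under that limit. It also had the narrowest regions, with a median of 267 bp, the lowest pileup at the limit, 10, and the shortest mean fragments, 169 bp. Without it the H3K27ac difference between adult and P9 was 4.15 percentage points, in place of 5.94, and the 3 remaining P9 libraries still lay below all adult libraries.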

How the results depend on the processing

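No measure passed an adjusted p of 0.05 under any setting tried, so each change below is one of direction or size. With 12 tests and a smallest exact permutation p of 0.0286, several measures would have to reach that p together to pass. When 1 library was left out, the smallest exact permutation p was 0.1 (P9 library) or 0.0667 (adult library), so none could pass. Not passing is therefore no evidence that the stages are alike. Differences are adult minus P9, in percentage points unless a unit is given. Ranking by fold enrichment reversed the promoter share (-1.28), the interferon-response motif (0.461), GC content (-0.116) and the macrophage overlap (-0.396). Ranking by −log10 q reversed the interferon-response motif (0.303) and GC content (-0.0662). The strongest 500 regions reversed the interferon-response motif (0.55), GC content (-0.258) and the macrophage overlap (-1.05), and gave 143 P9-high, 81 adult-high and 259 shared regions. A fold minimum of 3 reversed GC content (-0.0845). Full lists reversed the interferon-response motif (0.0260), AP-1 (-1.01), PU.1 (-44.5), H3K27ac (-16.5), H3K4me1 (-10.5) and the macrophage overlap (-40.9), and gave 24 P9-high, 14162 adult-high and 1345 shared regions. Full lists differ in length, which changes both the strength of the regions and the overlaps by construction. Adult batch 1 alone reversed GC content (-0.205) and gave 101 adult-high regions. Adult batch 2 alone reversed PU.1 (-2.33) and the macrophage overlap (-1.08) and gave 600 P9-high and 435 adult-high regions, since 1 library then makes the adult rule. Requiring every library of a stage gave 14 P9-high, 53 adult-high and 190 shared regions. The 200-bp summit window, added after seeing the data, reversed the composite (1.20), interferon-response (1.32) and ETS (2.31) motifs. Beyond the construction of the alternatives named here, the cause of these changes was not tested.

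Leaving out 1 library at a time, P9-high regions numbered 172 to 355, adult-high 85 to 240 and shared 392 to 561. The lowest P9-high counts were 177 without P9 replicate 1 and 172 without P9 replicate 3, and the adult-high counts were 94, 85 and 101 without adult replicates 1, 2 and 3. Shared regions numbered 402 and 392 without adult replicates 1 and 2. Leaving out a library of a stage also tightens its rule. Without any 1 of the P9 libraries, P9-high regions (172 to 191) were fewer than adult-high regions (213 to 240), the reverse of the main order. GC content ranged from -0.457 to 0.610 and AP-1 from -0.135 to 0.547, both across 0. Promoter share ranged from 0.0539 without P9 replicate 2 to 2.82 without P9 replicate 3, and the composite motif from -2.71 without P9 replicate 4 to -0.862 without P9 replicate 2. PU.1 ranged from 1.56 without P9 replicate 4 to 6.44 without adult replicate 3, and the macrophage overlap from 1.25 to 4.67 without adult replicates 2 and 3. The ETS motif ranged from -1.18 to -0.189 and the interferon-response motif from -0.547 to -0.0576, without P9 replicates 4 and 2, and 4 and 1. Of the 273 P9-high regions, 186 kept their class when ranked by fold enrichment and 236 when ranked by −log10 q, and of the 174 adult-high regions 112 and 132. Replicate numbers do not pair the libraries, whose ages differ: deviations correlated between -0.0183 and 0.0185. With a replicate block over 3 pairs (smallest exact p 0.25) the H3K27ac difference was 4.15, the width difference 777 bp and the composite difference -2.71. The peak lists give no counting error for single regions, and the P9 lists end at their calling threshold, so absence at P9 is not evidence of no binding.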

Other observations

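By chromosome, the X held 8 P9-high, 0 adult-high and 2 shared regions. These are 8 of 273, 0 of 174 and 2 of 613 regions, and no test was made on these counts. The share of all merged regions on the X was not taken, so no departure from it can be read.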
